A study of Mus musculus with 68 samples.

Results

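The genes described here are the C-type lectin receptors of the Cd209 family and of the Clec series outside the Clec2 genes. They were chosen by symbol alone, as every entry of the RNA-seq count table whose name starts with Cd209, or with Clec but not Clec2, which gave 32 of 23893 entries. The lungs came from wild-type male mice of the strains CAST/EiJ and C57BL/6J, 2 inbred strains of different subspecies origin. Mice breathed 1,3-butadiene (BD, an industrial gas that is carcinogenic in mice) for 6 h per day on weekdays over 2 weeks, or breathed clean air. The RNA-seq groups held 5 CAST/EiJ BD libraries, 7 CAST/EiJ clean-air libraries, 6 C57BL/6J BD libraries and 5 C57BL/6J clean-air libraries. A further library labelled CAST/EiJ BD (title number 8, replicate 5) is given apart throughout. No age is given in the labels used here, and no label says that libraries of a group came from separate animals, so the p-values measure the spread between these libraries, part of which may be technical.

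Library totals lay between 10597990 and 50001571 counts. A strain index was taken over 219 genes other than the lectins, chosen for a large strain difference in clean air, with 0 at the clean-air C57BL/6J mean and 1 at the clean-air CAST/EiJ mean. Library number 8 stood at 0.0796. The other CAST/EiJ BD libraries stood at 0.981 to 1.01 and the C57BL/6J BD libraries at 0.0245 to 0.0647, so library number 8 went against its strain label and entered no comparison. The titles of 5 of the 7 clean-air CAST/EiJ libraries and of 1 of the 5 clean-air C57BL/6J libraries have numbers over 100, and those of the BD libraries have lower ones. The labels do not say what these numbers mark. All 8 liver markers and all 7 squamous epithelium markers had counts in every group, and the summed level of squamous markers lay between 3.40 and 2283 CPM (counts per 1000000, scaled by TMM factors) over the libraries. Defining lung markers were summed at 21352 to 34227 CPM.

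C-type lectins are surface or secreted proteins built around a fold that, in many members, binds sugars in the presence of calcium. On macrophages, dendritic cells and neutrophils they recognise fungi, mycobacteria, viruses and dying cells. Some couple to Syk through activation motifs, as Clec7a (Dectin-1) does on its own tail and Clec4n (Dectin-2) does through the Fc receptor gamma chain. Others, such as Clec4a2 and Clec12a, carry inhibitory motifs that recruit phosphatases. Most of the genes lie in clusters of related copies, with the Dectin-2 and Dectin-1 groups on mouse chromosome 6 and the Cd209 group on chromosome 8.

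Of the 32 genes, 28 passed the filter on low counts among 17377 genes tested. Cd209e, Clec18a, Clec3a and Clec4f did not pass it, and their group means were at most 0.791 CPM. A gene was called when its Benjamini-Hochberg adjusted p from edgeR's quasi-likelihood test over all genes tested was under 0.05. Where a gene passed the filter only through the group in which it was high, its difference was in part fixed by that filter. Cd209f, Cd209g and Clec12b, with at most 6 counts in any compared CAST/EiJ library, passed it only through C57BL/6J. Clec4b2, with at most 3 counts in any C57BL/6J library, passed it only through CAST/EiJ. Levels are CPM and are compared between libraries of 1 gene, not between genes. In whole lung, fewer cells of a type and less RNA per cell cannot be told apart. Near-identical copies could share reads, and how the counting treated such reads is not given in the sources used here, so values of single Cd209, Clec4a and Clec4b copies are uncertain to that extent.

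Promoter windows of 300 bases around the gene start, from RefSeq on GRCm38.p6, were at hand for 26 of the 32 genes. Of these windows 3 are printed, each 5′ to 3′ in the direction of its gene: those of Cd209f and Cd209g, because these neighbours were near-absent together in CAST/EiJ, and that of Clec4b2, because this gene was near-absent in C57BL/6J. They are reference sequence, that of C57BL/6J, and hold no CAST/EiJ allele. The Cd209f window is chr8:4105715-4106014 on the minus strand, the Cd209g window is chr8:4134486-4134785 on the plus strand, and the Clec4b2 window is chr6:123172773-123173072 on the plus strand. Capitals mark, in the Cd209 windows, the longest run that is identical in both, 180 bases that start at base 97 of the Cd209f window and at base 83 of the Cd209g window. In the Clec4b2 window they mark TTCCTC.
Cd209f promoter: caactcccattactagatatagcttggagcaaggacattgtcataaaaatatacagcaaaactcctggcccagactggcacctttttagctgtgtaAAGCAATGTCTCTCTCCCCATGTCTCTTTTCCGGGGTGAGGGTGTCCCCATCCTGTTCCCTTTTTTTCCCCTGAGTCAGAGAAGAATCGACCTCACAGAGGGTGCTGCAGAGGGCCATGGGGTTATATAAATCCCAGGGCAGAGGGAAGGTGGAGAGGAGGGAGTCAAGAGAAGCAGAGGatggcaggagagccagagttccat
Cd209g promoter: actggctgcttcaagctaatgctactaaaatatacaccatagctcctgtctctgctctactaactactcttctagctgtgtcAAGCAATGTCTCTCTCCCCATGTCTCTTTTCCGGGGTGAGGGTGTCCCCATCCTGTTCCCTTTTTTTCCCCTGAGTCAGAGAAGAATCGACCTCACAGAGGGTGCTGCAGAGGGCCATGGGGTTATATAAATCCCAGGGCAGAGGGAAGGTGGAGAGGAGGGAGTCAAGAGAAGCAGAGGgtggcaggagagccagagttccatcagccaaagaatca
Clec4b2 promoter: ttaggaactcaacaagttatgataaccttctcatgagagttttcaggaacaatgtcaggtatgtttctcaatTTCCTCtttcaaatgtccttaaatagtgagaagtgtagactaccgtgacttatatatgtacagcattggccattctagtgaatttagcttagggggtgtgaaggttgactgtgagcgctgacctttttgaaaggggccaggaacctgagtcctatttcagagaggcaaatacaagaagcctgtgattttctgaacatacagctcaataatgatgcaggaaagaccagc

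The Cd209f and Cd209g windows aligned with 259 identical bases in 319 alignment columns, an identity of 81.2%. The next most alike pair within the Cd209 group, Cd209b and Cd209d, had 56.4%. The shared run holds TATAAA, the letters of a TATA box. TATAAA on either strand (reverse TTTATA) was found in 10 of the 26 lectin windows, against 14.2% of 27025 windows of the same length. GAGGAA (reverse TTCCTC), the core letters of sites bound by the myeloid factor PU.1, was found in 13 of the 26, against 28.3% of all windows. The Clec5a, Clec4e and Clec7a windows held both sets of letters. These matches describe the letters only.

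To determine how the lectins differed between the strains, CAST/EiJ libraries were compared with C57BL/6J libraries in clean air and, separately, under BD. In clean air 18 of the 28 tested lectins were called, 7 higher and 11 lower in CAST/EiJ. Over all genes tested 60.4% were called (29.4% higher and 31% lower), so the share of lectins called is close to the background. Under BD 18 of 28 were called, 10 higher and 8 lower, against 42.7% of all genes (20.4% higher and 22.3% lower). Of these, 14 were called in both comparisons and all 14 kept their direction, 7 higher and 7 lower. The same count was not made over all genes, so no background stands beside it. The median log2 fold of the 28 lectins was -0.20 in clean air and 0.20 under BD, against -0.0005 and -0.004 over all genes tested. Values of the 2 groups did not overlap for 12 lectins in clean air (4 higher and 8 lower, against 14.7% and 17.2%, or 31.9% in all, of all genes). Under BD they did not overlap for 9 (4 higher and 5 lower, against 13.7% and 15.6%, or 29.4% in all, of all genes).

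**Figure D1:**
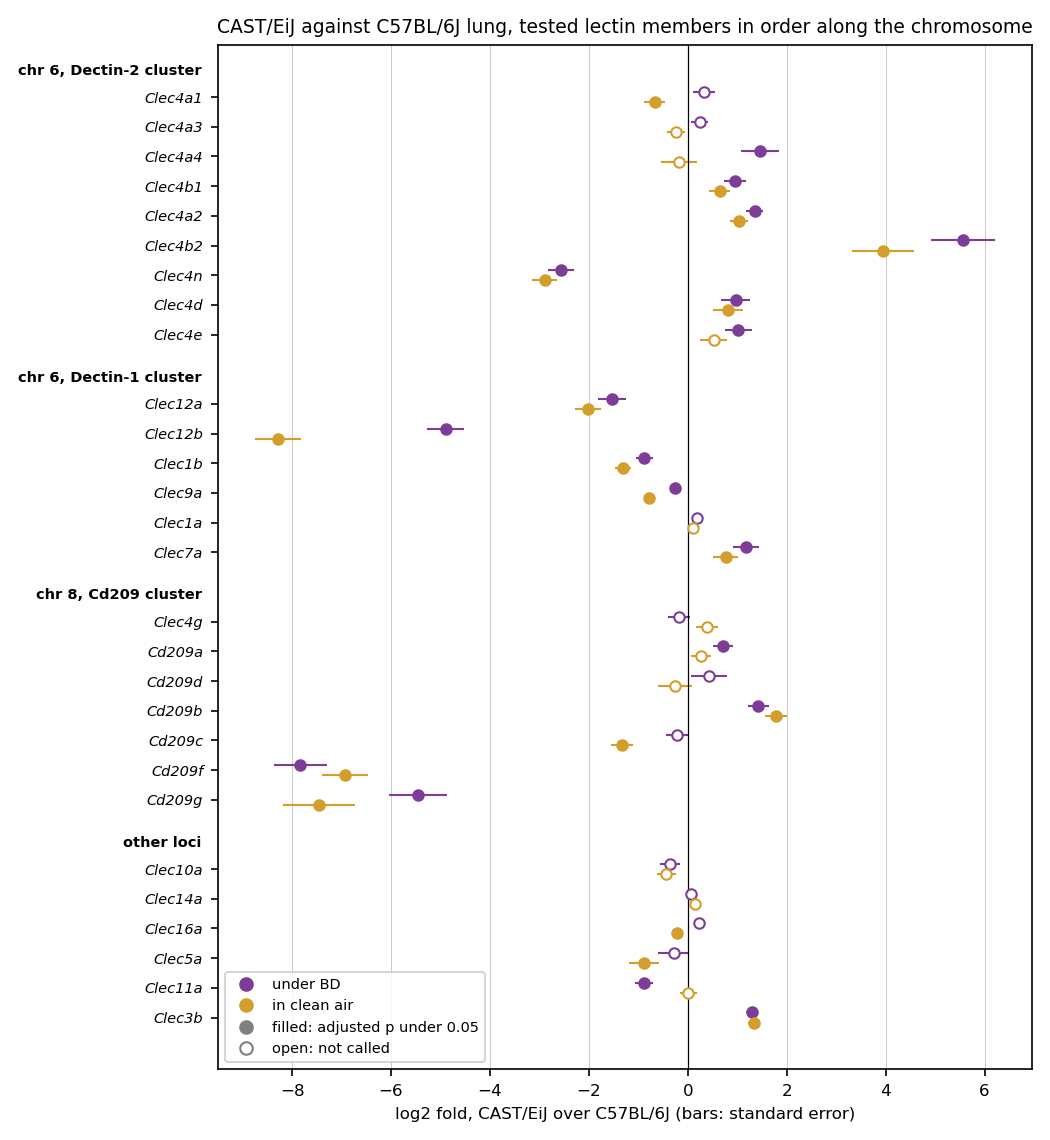
Log2 fold of CAST/EiJ over C57BL/6J (x axis) for the 28 tested lectins, in order along their chromosomes, under BD (purple) and in clean air (gold). Bars are standard errors and filled points were called at adjusted p under 0.05. Clec12b, Cd209f, Cd209g and Clec4b2 stand farthest from 0, and their fitted values rest on a few counts in 1 strain.

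The Cd209 group on chromosome 8 showed both directions among adjacent copies. Cd209f (SIGN-R8) and Cd209g (SIGN-R7), which lie next to each other on opposite strands, were measured in C57BL/6J and were almost without counts in CAST/EiJ. Cd209f had 0.0400 CPM in 1 CAST/EiJ BD library and 0 in the other 4, against a lowest, median and highest value of 2.54, 2.84 and 4.21 CPM in C57BL/6J BD. In clean air it had 0.0899 CPM in 1 CAST/EiJ library and 0 in the other 6, against 3.16, 3.00, 1.75, 2.71 and 1.92 CPM in C57BL/6J. Every CAST/EiJ value lay far below every C57BL/6J value. Summed over libraries, 1 count in CAST/EiJ BD stood against 401 in C57BL/6J BD, a depth-adjusted ratio of C57BL/6J over CAST/EiJ of 401 (exact 95% interval 71.6 to 15877, counting error only). In clean air 2 counts stood against 269, a ratio of 175 (47.9 to 1450). The edgeR quasi-likelihood adjusted p was 2.42e-11 under BD and 2.1e-11 in clean air. As for Cd209g below, the filter on low counts was passed through C57BL/6J alone, so this difference was in part fixed by it.

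Cd209g had no count in any of the 7 clean-air CAST/EiJ libraries, against 1.57, 1.20, 0.643, 0.576 and 0.872 CPM in clean-air C57BL/6J. Set against a floor of 3 counts per library, a mean of 0.177 CPM, it was at least 5.49-fold lower in CAST/EiJ (edgeR adjusted p = 1.18e-07). Under BD 3 counts in CAST/EiJ stood against 172 in C57BL/6J, a ratio of C57BL/6J over CAST/EiJ of 57.3 (19.3 to 281; edgeR adjusted p = 5.68e-07). Library number 8 held 4.42 CPM of Cd209f and 1.01 CPM of Cd209g, both within the range of the C57BL/6J libraries or just above it. Kept under its label, it ended the Cd209f call under BD (adjusted p = 0.0801).

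Cd209b (SIGN-R1), the receptor for bacterial polysaccharides on marginal zone macrophages, went the other way. It was measured at 3.40, 3.56, 5.34, 5.25 and 3.00 CPM in CAST/EiJ BD, against a lowest, median and highest value of 1.11, 1.38 and 2.45 CPM in C57BL/6J BD. In clean air the CAST/EiJ libraries held 4.07, 4.79 and 6.30 CPM (lowest, median, highest), against 1.49, 1.27, 2.11, 1.21 and 1.18 CPM in C57BL/6J. Both comparisons were without overlap. Cd209b was 2.68-fold higher in CAST/EiJ under BD (log2 1.42 ± 0.21 SE; edgeR adjusted p = 7.14e-06) and 3.43-fold higher in clean air (1.78 ± 0.22; 2.86e-07).

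Cd209c (SIGN-R2) was lower in CAST/EiJ in clean air, at 0.469, 0.706 and 1.06 CPM (lowest, median, highest), against 1.17, 2.10, 1.65, 2.07 and 1.83 CPM in C57BL/6J. The groups did not overlap, and the log2 fold was -1.33 ± 0.22 (SE; edgeR adjusted p = 1.82e-05). Under BD it was not called, with a mean of 1.01 ± 0.329 CPM in CAST/EiJ (SD, n = 5) and 1.19 ± 0.169 CPM in C57BL/6J (SD, n = 6). Cd209a, the copy closest to human DC-SIGN in its expression on dendritic cells, was 1.64-fold higher in CAST/EiJ under BD (log2 0.71 ± 0.21 SE; edgeR adjusted p = 0.00729). It held 5.39, 11.96, 8.51, 13.4 and 5.45 CPM in CAST/EiJ BD, against 4.28, 4.93 and 8.08 CPM (lowest, median, highest) in C57BL/6J BD, so the groups overlapped. In clean air CAST/EiJ held 8.65, 9.28 and 12.5 CPM (lowest, median, highest), against 9.46, 7.50, 6.89, 9.16 and 7.50 CPM in C57BL/6J, with overlap. The log2 fold there was 0.27 ± 0.20 (SE), not called. Cd209d (SIGN-R3) and Clec4g (LSECtin), the remaining tested genes of the cluster, were called in neither strain comparison.

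The Dectin-2 group on chromosome 6 also held neighbours with opposite strain differences. Clec4n (Dectin-2), the receptor for fungal mannans, was lower in CAST/EiJ. It was measured at 2.55, 2.24, 0.757, 3.77 and 3.20 CPM in CAST/EiJ BD, against 11.2, 14.6 and 19.9 CPM (lowest, median, highest) in C57BL/6J BD. In clean air CAST/EiJ held 1.40, 1.56 and 1.95 CPM, against 17.3, 11.4, 10.02, 9.10 and 10.9 CPM in C57BL/6J. No library of either CAST/EiJ group reached a C57BL/6J value. The level was 5.94-fold lower in CAST/EiJ under BD (log2 -2.57 ± 0.27 SE; edgeR adjusted p = 3.57e-08) and 7.41-fold lower in clean air (-2.89 ± 0.25; 1.7e-09). Library number 8 held 20.1 CPM.

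Its neighbours on both sides were higher in CAST/EiJ. Clec4b2 (DCAR1), a receptor that pairs with the Fc receptor gamma chain, was described after its values were seen, since its highest group mean was 0.960 CPM. It had 1.02, 0.680, 0.430, 1.71 and 0.953 CPM in CAST/EiJ BD, against 0 in 4 and at most 0.0384 CPM in the other 2 C57BL/6J BD libraries. Summed, 120 counts stood against 2, a ratio of CAST/EiJ over C57BL/6J of 60.0 (exact 95% interval 16.3 to 501). In clean air 91 counts in CAST/EiJ stood against 4 in C57BL/6J, a ratio of 17.5 (6.61 to 65.7). The groups did not overlap in either comparison, and the edgeR adjusted p was 1.86e-07 under BD and 1.01e-05 in clean air. Clec4b2 passed the filter on low counts through CAST/EiJ alone, so the difference was in part fixed by that filter. Library number 8 had no count of Clec4b2.

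Clec4a2 (DCIR1), an inhibitory receptor of myeloid cells, was measured at 13.2, 11.999, 6.71, 18.2 and 12.3 CPM in CAST/EiJ BD, against 3.84, 4.46 and 6.64 CPM (lowest, median, highest) in C57BL/6J BD. In clean air it held 8.90, 11.4 and 12.3 CPM in CAST/EiJ, against 5.10, 5.62, 4.59, 5.41 and 5.27 CPM in C57BL/6J. The groups did not overlap in either comparison, although the lowest CAST/EiJ BD library came within 0.1 CPM of the highest C57BL/6J BD library. Clec4a2 was 2.55-fold higher in CAST/EiJ under BD (log2 1.35 ± 0.18 SE; edgeR adjusted p = 1.57e-06) and 2.04-fold higher in clean air (1.03 ± 0.18; 3.59e-05).

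Clec4b1 (DCAR), another activating copy, was 1.94-fold higher in CAST/EiJ under BD (log2 0.96 ± 0.22 SE; edgeR adjusted p = 0.00108). It held 2.84, 3.52, 1.96, 4.12 and 2.72 CPM in CAST/EiJ BD, against 1.15, 1.52 and 2.22 CPM (lowest, median, highest) in C57BL/6J BD, with 1 CAST/EiJ library inside the C57BL/6J range. In clean air it held 2.12, 3.39 and 4.77 CPM in CAST/EiJ, against 1.78, 2.85, 2.57, 2.48 and 1.61 CPM in C57BL/6J, with overlap. The clean-air call (log2 0.64, adjusted p = 0.0131) ended when title numbers over 100 were left out (log2 0.14, edgeR adjusted p = 0.745). Clec4e (Mincle), the receptor for mycobacterial cord factor, was called under BD only, at log2 1.02 ± 0.27 (SE; edgeR adjusted p = 0.00408). Its values of 2.95, 5.64, 1.94, 7.89 and 4.49 CPM in CAST/EiJ BD overlapped the 1.65, 2.17 and 3.11 CPM (lowest, median, highest) of C57BL/6J BD. In clean air CAST/EiJ held 1.93, 3.08 and 4.09 CPM, against 2.68, 2.47, 1.93, 1.90 and 1.57 CPM in C57BL/6J, also with overlap. Clec4d (MCL), the partner of Mincle, was called higher in both comparisons, at log2 0.97 ± 0.30 under BD and 0.81 ± 0.30 in clean air (SE), and the clean-air call ended without title numbers over 100, without clean-air C57BL/6J replicate 3 and without clean-air CAST/EiJ replicate 5. Clec4a1 (DCIR4) was called lower in CAST/EiJ in clean air only (log2 -0.67 ± 0.21 SE; edgeR adjusted p = 0.00909). That call ended without title numbers over 100 and with the number series as a covariate. Clec4a4 (DCIR2) was called higher in CAST/EiJ under BD only (log2 1.47 ± 0.39 SE; edgeR adjusted p = 0.00346). This call was kept in all 30 other settings but rests on few counts. Clec4a3 (DCIR3) was called in neither comparison.

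The CAST/EiJ BD library with the lowest alveolar macrophage marker sum, 2275 CPM against 3198 to 4784 CPM in the other 4, also held the lowest Clec4n, Clec4a2, Clec4b1 and Clec4e of its group. It was lowest as well in the marker sums of interstitial macrophages, type 1, type 2 and plasmacytoid dendritic cells, neutrophils, B cells and T cells. Alveolar macrophage markers were summed at 2275 to 4784 CPM in CAST/EiJ BD and 1975 to 4088 CPM in CAST/EiJ clean air, against 961 to 1158 CPM in C57BL/6J BD and 829 to 991 CPM in C57BL/6J clean air. Of the 12 markers tested, 7 were called higher and 4 lower in CAST/EiJ under BD, and 7 higher and 3 lower in clean air. None of these 12 was at 0 in a group, and the other 2 genes of the list were not used here. Of all genes tested, 20.4% were called higher and 22.3% lower under BD, and 29.4% and 31% in clean air. The same shares apply to the other marker counts of the strain comparisons. Other myeloid markers moved in both directions. Of 8 interstitial macrophage markers, 1 was called higher and 5 lower in CAST/EiJ in each comparison. Their sum was 308 to 433 CPM in CAST/EiJ BD and 260 to 451 CPM in CAST/EiJ clean air. It was 252 to 322 CPM in C57BL/6J BD and 211 to 269 CPM in C57BL/6J clean air. Of 7 mature dendritic cell markers, 0 were called higher and 3 lower under BD, and 1 higher and 6 lower in clean air. Of 8 monocyte markers, 4 were called higher and 1 lower under BD, and 4 higher and 3 lower in clean air. Of 8 neutrophil markers tested, 5 were called higher and 0 lower in CAST/EiJ under BD, and 3 higher and 1 lower in clean air. The neutrophil sum was 74.8 to 235 CPM in CAST/EiJ BD and 71.2 to 152 CPM in CAST/EiJ clean air, against 24.0 to 113 CPM in C57BL/6J BD and 57.8 to 89.5 CPM in C57BL/6J clean air. Of 7 type 2 dendritic cell markers, 5 were called higher and 1 lower under BD, and 1 higher and 1 lower in clean air. Their sum was 264 to 448 CPM in CAST/EiJ BD and 271 to 359 CPM in CAST/EiJ clean air, against 215 to 314 CPM in C57BL/6J BD and 286 to 311 CPM in C57BL/6J clean air. The part of any of these cells in the strain differences of the lectins was not tested.

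**Figure D2:**
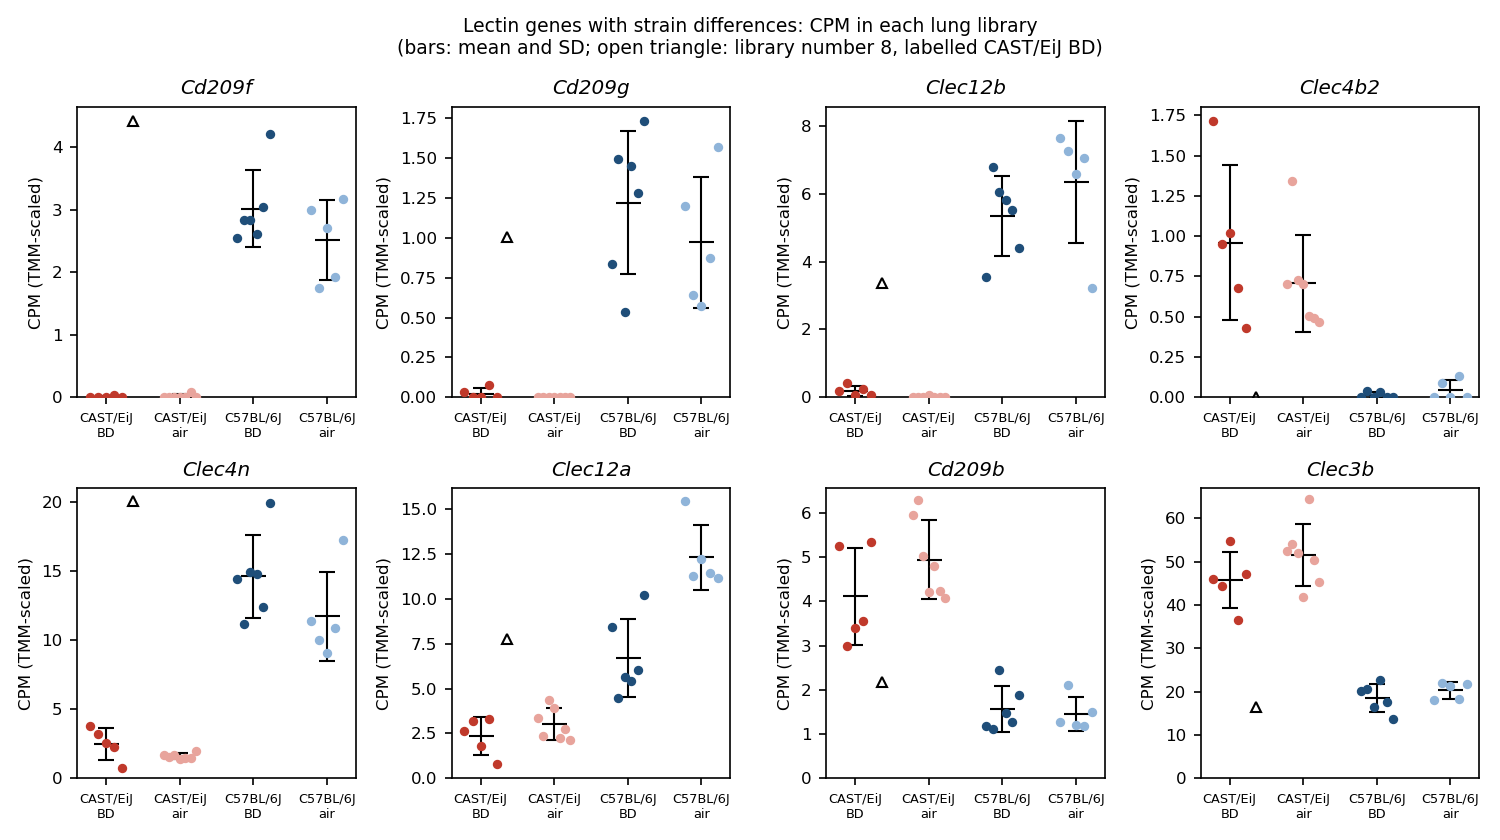
CPM (y axis) of 8 lectins in every library of the 4 groups on the x axis, with the mean and SD as bars and library number 8 as an open triangle. Cd209f, Cd209g and Clec12b lie at or near 0 in CAST/EiJ, Clec4b2 lies at or near 0 in C57BL/6J, and library number 8 sits with C57BL/6J in each of these panels.

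In the Dectin-1 group, a stretch of 4 adjacent genes was lower in CAST/EiJ in both comparisons: Clec12a, Clec12b, Clec1b and Clec9a. Clec12b, an inhibitory receptor, was close to absent in CAST/EiJ. It had 0.0567, 0.240, 0.0818, 0.171 and 0.408 CPM in CAST/EiJ BD, against 3.53, 5.65 and 6.79 CPM (lowest, median, highest) in C57BL/6J BD. In clean air 1 CAST/EiJ library had 0.0584 CPM and the other 6 had none, against 3.22, 7.65, 7.26, 6.57 and 7.06 CPM in C57BL/6J. There was no overlap in either setting. Summed counts gave a ratio of C57BL/6J over CAST/EiJ of 32.8 under BD (22 against 721 counts, exact 95% interval 21.5 to 52.6) and of 375 in clean air (2 against 578 counts, 103.4 to 3107). The edgeR adjusted p was 2.7e-10 under BD and 8.96e-13 in clean air. Clec12b passed the filter on low counts through C57BL/6J alone, so the difference was in part fixed by that filter. Library number 8 held 3.35 CPM.

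Clec12b's annotated range overlaps those of Clec1b, Clec9a and Clec1a on GRCm38.p6, and its strand is opposite to that of Clec1b and Clec9a. Whether the counting used the strand is not given in the sources used here, so reads of the overlapping genes may not have been told apart. In CAST/EiJ, Clec9a was measured at 39.6 to 62.6 CPM in the same libraries in which Clec12b was at 0 to 0.408 CPM. The sharing of reads between these genes was not tested.

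Clec12a (MICL), an inhibitory receptor that senses uric acid crystals, held 1.82, 3.32, 0.798, 2.64 and 3.20 CPM in CAST/EiJ BD, against 4.49, 5.86 and 10.2 CPM (lowest, median, highest) in C57BL/6J BD. In clean air it held 2.11, 2.74 and 4.38 CPM in CAST/EiJ, against 11.1, 15.4, 11.3, 12.2 and 11.5 CPM in C57BL/6J. Both pairs of groups were apart. It was 2.89-fold lower in CAST/EiJ under BD (log2 -1.53 ± 0.29 SE; edgeR adjusted p = 0.000123) and 4.06-fold lower in clean air (-2.02 ± 0.26; 7.62e-07).

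Clec1b (CLEC-2), the podoplanin receptor of platelets, was measured at 5.84, 5.08, 5.63, 6.00 and 5.24 CPM in CAST/EiJ BD, against 5.89, 9.97 and 14.3 CPM (lowest, median, highest) in C57BL/6J BD, with a narrow overlap. In clean air it held 3.08, 4.15 and 5.004 CPM in CAST/EiJ, against 7.84, 9.07, 12.04, 11.98 and 10.9 CPM in C57BL/6J, with none. It was 1.84-fold lower in CAST/EiJ under BD (log2 -0.88 ± 0.18 SE; edgeR adjusted p = 0.000286) and 2.48-fold lower in clean air (-1.31 ± 0.17; 6.7e-07). Platelet markers moved with it. Of 8 such markers, 6 under BD and 7 in clean air were called lower in CAST/EiJ and none higher, and their sum was 37.9 to 57.4 CPM in CAST/EiJ BD and 31.0 to 52.7 CPM in CAST/EiJ clean air, against 38.4 to 89.0 CPM in C57BL/6J BD and 68.0 to 88.8 CPM in C57BL/6J clean air. No platelet marker was at 0 in a group, and the part of platelet RNA in the difference was not tested.

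Clec9a (DNGR-1), with which type 1 conventional dendritic cells sense the exposed actin of dead cells, was lower in CAST/EiJ in clean air. Its values there were 39.6, 41.8 and 46.0 CPM (lowest, median, highest), against 55.2, 81.8, 75.3, 89.0 and 67.5 CPM in C57BL/6J, without overlap, and its log2 fold was -0.79 ± 0.10 (SE; edgeR adjusted p = 4.81e-07). Under BD it held 58.6, 45.7, 46.8, 54.4 and 62.6 CPM in CAST/EiJ, against 56.6, 63.2 and 75.9 CPM in C57BL/6J, and the groups overlapped (log2 -0.26 ± 0.10; edgeR adjusted p = 0.0469). That call under BD ended in 20 of 31 other settings. Of 8 markers of type 1 dendritic cells, 5 were called lower and 1 higher in CAST/EiJ in clean air, and 2 lower and 1 higher under BD. Their sum was 417 to 519 CPM in CAST/EiJ BD and 423 to 578 CPM in CAST/EiJ clean air, against 456 to 584 CPM in C57BL/6J BD and 600 to 635 CPM in C57BL/6J clean air, with no marker at 0, and their part in the Clec9a difference was not tested.

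Beyond this stretch the pattern changed. Clec1a (MelLec), the receptor for fungal melanin, lies next to Clec9a and was called in neither comparison, at 241 ± 41.2 CPM in CAST/EiJ BD (SD, n = 5) and 213 ± 15.4 CPM in C57BL/6J BD (SD, n = 6). Clec7a (Dectin-1), the receptor for fungal beta-glucan, was higher in CAST/EiJ. It held 108, 115, 36.1, 150 and 118 CPM in CAST/EiJ BD, against 34.3, 40.7 and 65.4 CPM (lowest, median, highest) in C57BL/6J BD. Of the CAST/EiJ libraries 4 lay above all C57BL/6J libraries, and the low one is the library that was lowest in most immune marker sums. Clec7a was 2.25-fold higher under BD (log2 1.17 ± 0.26 SE; edgeR adjusted p = 0.00107). In clean air it held 52.9, 94.4 and 118 CPM in CAST/EiJ, against 66.7, 57.5, 47.2, 52.3 and 58.2 CPM in C57BL/6J, with 1 low CAST/EiJ library inside the C57BL/6J range. The log2 fold there was 0.76 ± 0.26 (SE; edgeR adjusted p = 0.0151), and this call ended without title numbers over 100 (log2 0.45, edgeR adjusted p = 0.396). The clean-air CAST/EiJ library with the lowest Clec7a, 52.9 CPM against 93.5 to 118 CPM in the other 6, was also the one with liver markers at 1678 CPM, against 5.39 to 140 CPM in those 6. The same library held the lowest alveolar macrophage (1975 CPM), monocyte (1185 CPM) and type 1 (423 CPM) and type 2 (271 CPM) dendritic cell marker sums of its group. Clean-air CAST/EiJ replicate 6 had sums of 1994, 1214, 442 and 336 CPM in the same order, and held Clec7a at 94.3 CPM. The part of any of these in the low Clec7a level was not tested.

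Outside the clusters, Clec3b (tetranectin), a secreted protein that binds plasminogen, was higher in CAST/EiJ with little spread. It was measured at 54.7, 36.5, 47.3, 46.0 and 44.4 CPM in CAST/EiJ BD, against 13.6, 18.9 and 22.6 CPM (lowest, median, highest) in C57BL/6J BD. In clean air CAST/EiJ held 41.8, 52.1 and 64.5 CPM, against 21.9, 17.997, 22.1, 21.4 and 18.4 CPM in C57BL/6J. No values overlapped in either setting. The level was 2.47-fold higher in CAST/EiJ under BD (log2 1.30 ± 0.12 SE; edgeR adjusted p = 5.34e-09) and 2.53-fold higher in clean air (1.34 ± 0.12; 2.84e-09). Library number 8 held 16.4 CPM, within the C57BL/6J BD range. Fibroblast markers, whose sum was 2214 to 3100 CPM in CAST/EiJ BD and 2485 to 3571 CPM in CAST/EiJ clean air, against 1930 to 3003 CPM in C57BL/6J BD and 1856 to 2716 CPM in C57BL/6J clean air, were called higher for 1 of 9 under BD (and lower for 1) and for 4 of 9 in clean air. Their part in the difference was not tested.

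Clec5a (MDL-1), which signals through DAP12 on myeloid cells, and Clec16a, an endosomal protein named for a lectin-like stretch, were called lower in CAST/EiJ in clean air. Their log2 folds were -0.89 ± 0.30 and -0.22 ± 0.09 (SE), and both calls ended without title numbers over 100. The Clec5a call was lost in 2 of 31 other settings and the Clec16a call in 21, among them median-of-ratios scaling, DESeq2 and 14 fits that left out a library. Clec14a, an endothelial membrane protein, held 475 ± 87.9 CPM in CAST/EiJ BD (SD, n = 5) and 454 ± 28.3 CPM in C57BL/6J BD (SD, n = 6) and was called in no comparison. Clec10a (MGL1), the galactose-binding lectin of macrophages, was called in none either. Clec4f, a receptor of Kupffer cells in the liver that did not pass the filter, reached 1.34 CPM in the clean-air CAST/EiJ library with high liver markers, against at most 0.525 CPM elsewhere.

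To determine how BD changed the lectins, the exposed libraries of each strain were set against those of the same strain in clean air. The 5 clean-air and 6 BD libraries of C57BL/6J gave 4 calls among the 28 lectins, 1 higher and 3 lower, against 10.7% of all genes tested (4.2% higher and 6.49% lower). At an unadjusted p under 0.05 there were 8. The median log2 fold was -0.13, against -0.002 over all genes tested. In CAST/EiJ 3 lectins were called, all higher under BD, against 7.22% of all genes (3.86% higher and 3.37% lower), and 9 had an unadjusted p under 0.05. The percentages are for adjusted calls. The share of all genes at an unadjusted p under 0.05 was not counted, here or for the lists below. Counts at that threshold therefore have no background beside them. The median log2 fold there was 0.14, against -0.018. Values of BD and clean air did not overlap for 1 lectin in C57BL/6J, which was lower (7.92% of all genes, 3.79% higher and 4.13% lower). In CAST/EiJ they did not overlap for 2, of which 1 was higher and 1 lower (2.07% of all genes, 1.23% higher and 0.84% lower). These small counts moved with single libraries. The count in C57BL/6J was 0 without clean-air replicate 3 or 4 (5.57% and 7.34% of all genes called). It was 1 without clean-air replicate 2 or BD replicate 5 (7.89% and 7%). It was 2 without BD replicate 2, 3 or 4 (9.67%, 7.55% and 7.27%). The count in CAST/EiJ was 5 without BD replicate 3 (5.5% of all genes).

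**Figure D3:**
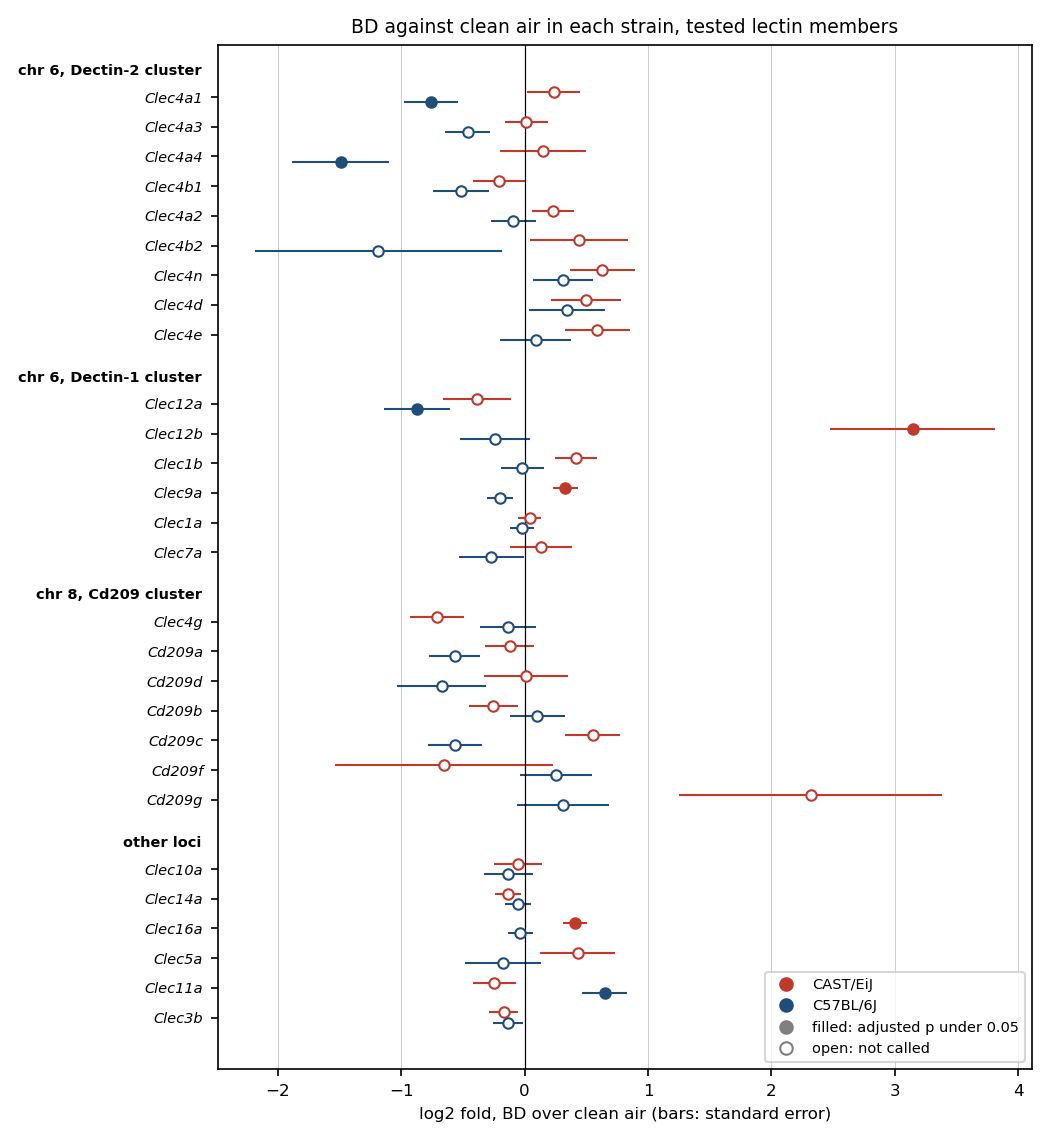
Log2 fold of BD over clean air (x axis) for the 28 tested lectins in CAST/EiJ (red) and C57BL/6J (blue), with standard errors as bars and called genes filled. Most points lie within 1 of 0, and Clec12b in CAST/EiJ, at 3.14, rests on 22 BD counts and 2 clean-air counts.

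In C57BL/6J, Clec12a fell to 4.49, 5.86 and 10.2 CPM under BD (lowest, median, highest), against 11.1, 15.4, 11.3, 12.2 and 11.5 CPM in clean air. It was the 1 lectin whose groups were apart. The fall was 1.83-fold (log2 -0.87 ± 0.27 SE; edgeR adjusted p = 0.0359), and the adjusted p over the 31 other settings lay between 0.00852 and 0.127. The call ended without any 1 of clean-air replicates 2, 3, 4 and 5 or of BD replicates 2, 3, 4 and 5, without a filter on low counts and with library number 8 kept. In CAST/EiJ it held 2.35 ± 1.05 CPM under BD (SD, n = 5) and 3.02 ± 0.900 CPM in clean air (SD, n = 7), not called.

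The DCIR copies Clec4a4 and Clec4a1, named here because so few genes were called, also fell in C57BL/6J. Clec4a4 (DCIR2), the receptor that the 33D1 antibody binds on type 2 dendritic cells, held 0.0535, 0.180 and 0.380 CPM under BD (lowest, median, highest), against 0.292, 0.450, 1.01, 0.921 and 0.523 CPM in clean air. The groups overlapped and the values rest on few counts (log2 -1.49 ± 0.40 SE; edgeR adjusted p = 0.0171). Clec4a1 (DCIR4), a marker of some monocytes, held 1.71, 2.51 and 4.41 CPM under BD, against 3.85, 5.55, 4.96, 6.28 and 4.27 CPM in clean air. The highest 2 BD libraries lay inside the clean-air range (log2 -0.76 ± 0.22 SE; edgeR adjusted p = 0.028). Both calls were kept when title numbers over 100 were left out, at log2 -1.70 (edgeR adjusted p = 0.013) for Clec4a4 and -0.84 (0.0246) for Clec4a1. The Clec4a4 call ended without clean-air replicate 3 or 4, and that of Clec4a1 without any 1 of clean-air replicates 2 to 4 or BD replicates 2 to 5, with adjusted p of at most 0.0646 and 0.088.

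Other cells' markers moved in the same C57BL/6J comparison, in which 6.49% of all genes tested fell and 4.2% rose. Markers of type 1 dendritic cells fell for 5 of 8 and none rose, with sums of 456 to 584 CPM under BD against 600 to 635 CPM in clean air. B cell markers fell for 6 of 7, with sums of 54.8 to 144 CPM under BD against 156 to 288 CPM in clean air, and T cell markers fell for 4 of 8, with sums of 30.9 to 50.7 CPM under BD against 54.3 to 74.3 CPM in clean air. Monocyte markers fell for 3 of 8, with sums of 1135 to 1748 CPM under BD against 1285 to 1544 CPM in clean air. Type 2 dendritic cell markers fell for 1 of 7, with sums of 215 to 314 CPM against 286 to 311 CPM. The sums of both lists overlapped. Mature dendritic cell markers fell for 3 of 7, with sums of 140 to 151 CPM against 160 to 182 CPM, without overlap. Plasmacytoid dendritic cell markers fell for 2 of 8, with overlapping sums of 289 to 350 CPM against 348 to 400 CPM. Neutrophil and interstitial macrophage markers each fell for 1 of 8 tested, also with overlapping sums. Alveolar macrophage markers rose for 1 of 12 and fell for 0, with sums of 961 to 1158 CPM against 829 to 991 CPM. Lymphatic endothelium markers rose for 1 of 7 and fell for 0, with sums of 646 to 857 CPM against 499 to 618 CPM. None of these markers was at 0 in a group, and their part in the lectin changes was not tested.

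Clec11a (osteolectin), a secreted growth factor for bone-forming and blood progenitor cells, was the lectin that rose in C57BL/6J. It held 5.44, 9.71 and 11.8 CPM under BD (lowest, median, highest), against 7.50, 4.65, 4.87, 5.53 and 6.58 CPM in clean air. Of the 6 BD libraries 4 lay above every clean-air library. The rise was 1.57-fold (log2 0.65 ± 0.18 SE; edgeR adjusted p = 0.0229), and its call ended without any 1 of clean-air replicates 2 to 4 or BD replicates 5 and 6 and with library number 8 kept (adjusted p of at most 0.0739). In CAST/EiJ it held 5.62, 4.04, 5.44, 4.87 and 5.04 CPM under BD, against 4.47, 5.73 and 7.54 CPM (lowest, median, highest) in clean air, not called. Under BD it was 1.84-fold lower in CAST/EiJ than in C57BL/6J (log2 -0.88 ± 0.18 SE; edgeR adjusted p = 0.000369), while in clean air the strains differed by a log2 fold of 0.01 ± 0.18.

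In CAST/EiJ, Clec12b, Clec16a and Clec9a rose under BD. Clec12b had 22 counts over the 5 BD libraries, each of which had at least 1, against 2 counts over the 7 clean-air libraries, both in 1 library. The ratio of BD over clean air was 10.8 (exact 95% interval 2.65 to 94.6; edgeR adjusted p = 0.0119). Even so, its BD level of 0.192 ± 0.141 CPM in CAST/EiJ (SD, n = 5) was far below the 5.35 ± 1.18 CPM of C57BL/6J BD (SD, n = 6). The call ended without title numbers over 100 (edgeR adjusted p = 0.0827), where 2 clean-air CAST/EiJ libraries remained.

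Clec9a held 58.6, 45.7, 46.8, 54.4 and 62.6 CPM in CAST/EiJ BD, against 39.6, 41.8 and 46.0 CPM (lowest, median, highest) in CAST/EiJ clean air. Of the BD libraries 4 lay above every clean-air library, and the rise was 1.26-fold (log2 0.33 ± 0.10 SE; edgeR adjusted p = 0.0475), a call that ended in 19 of 31 other settings. Clec16a, which acts in endosomal traffic and the removal of mitochondria, averaged 57.9 ± 7.95 CPM in CAST/EiJ BD (SD, n = 5) and 43.6 ± 7.06 CPM in CAST/EiJ clean air (SD, n = 7), a rise of 1.33-fold (edgeR adjusted p = 0.0181). Without title numbers over 100 the log2 folds were 0.25 for Clec9a (edgeR adjusted p = 0.442) and 0.18 for Clec16a (0.467), and neither was called. A fit of the 2 CAST/EiJ groups alone called 0 lectins and 0.957% of all genes, but Clec12b had no test result in that fit. Title numbers over 100 stand only on the clean-air side of the comparison, so the number series and BD are in part confounded, and 2 clean-air CAST/EiJ libraries have lower numbers. With the series as a covariate 0 lectins and 1.58% of all genes were called.

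The lectins whose BD and clean-air values were apart in CAST/EiJ were Clec1b and Clec4g, and neither was called. Clec1b held 5.84, 5.08, 5.63, 6.00 and 5.24 CPM under BD, against 3.08, 4.15 and 5.004 CPM (lowest, median, highest) in clean air (log2 0.42 ± 0.17 SE; edgeR adjusted p = 0.12). Clec4g, a receptor of liver sinusoidal endothelium, held 0.851, 0.960, 0.777, 0.686 and 0.885 CPM under BD, against 1.02, 1.26 and 2.26 CPM in clean air (log2 -0.71 ± 0.22 SE; edgeR adjusted p = 0.0516). The highest clean-air value came from the library with high liver markers, and without that library the log2 fold was -0.54 (adjusted p = 0.0747). Without title numbers over 100 Clec4g was called (log2 -1.11, edgeR adjusted p = 0.0402), but 1 of the 2 clean-air CAST/EiJ libraries then left is the one with high liver markers. The fungal and mycobacterial receptors of myeloid cells did not pass the test in either strain. The log2 fold of BD over clean air of Clec4n was 0.63 ± 0.26 in CAST/EiJ and 0.31 ± 0.24 in C57BL/6J (SE). That of Clec4e was 0.59 ± 0.26 in CAST/EiJ and 0.09 ± 0.28 in C57BL/6J, and that of Clec4d was 0.50 ± 0.28 and 0.34 ± 0.31 in the same strains. Clec7a had 0.13 ± 0.25 in CAST/EiJ and -0.27 ± 0.26 in C57BL/6J.

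**Figure D4:**
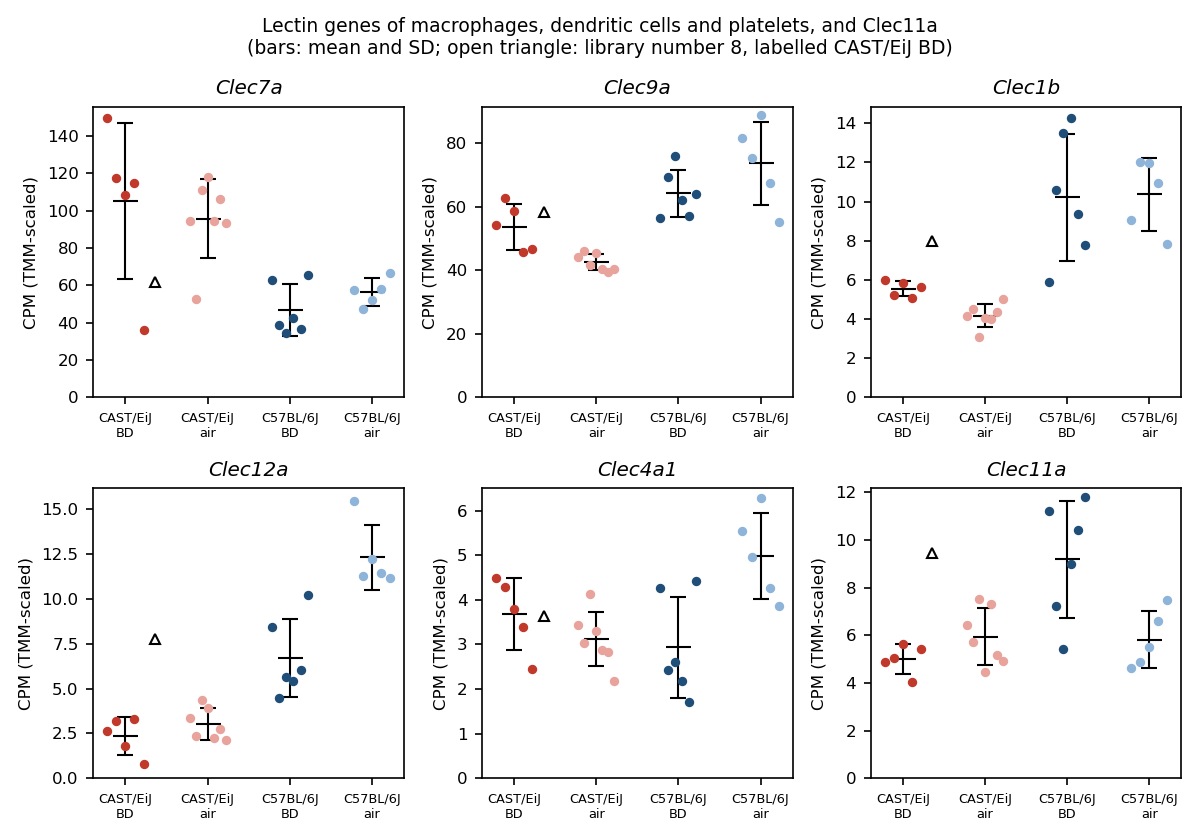
CPM (y axis) of 6 lectins in every library of the 4 groups on the x axis, with the mean and SD as bars and library number 8 as an open triangle. Clec12a lies below the clean-air values in every C57BL/6J BD library, Clec11a is highest in C57BL/6J BD, and a single CAST/EiJ BD library holds Clec7a at 36.1 CPM.

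To determine whether the response to BD differed between the strains, the BD log2 fold in CAST/EiJ minus that in C57BL/6J was tested as an interaction. Of 28 lectins 6 were called, 5 with a positive and 1 with a negative difference, against 9.44% of all genes tested (5.62% positive and 3.82% negative). The median difference of the lectins was 0.44, against -0.017 over all genes. The called genes and their differences were Clec12b at 3.39 ± 0.73 (SE), Cd209c at 1.12 ± 0.31, Clec4a1 at 0.99 ± 0.31, Clec9a at 0.53 ± 0.15, Clec16a at 0.44 ± 0.14 and Clec11a at -0.89 ± 0.25, with edgeR adjusted p between 0.0144 and 0.0439. Cd209c held 1.01 ± 0.329 CPM in CAST/EiJ BD (SD, n = 5) and 0.692 ± 0.206 CPM in CAST/EiJ clean air (SD, n = 7), against 1.19 ± 0.169 CPM in C57BL/6J BD (SD, n = 6) and 1.77 ± 0.380 CPM in C57BL/6J clean air (SD, n = 5). None of these calls was kept without title numbers over 100, where 1.8% of all genes were called, nor with the number series in the fit (0.483% of all genes). With limma-voom 2 lectins and 6.66% of all genes were called. The count was 1 without any 1 of clean-air C57BL/6J replicates 2 to 4 (4.86%, 2.12% and 2.74% of all genes). It was also 1 without C57BL/6J BD replicate 4 or 5 (4.76% and 3.47%). It was 2 without CAST/EiJ BD replicate 1 (3.39%) or clean-air CAST/EiJ replicate 4 (4.61%). It was 3 without CAST/EiJ BD replicate 4 (6.69%) or clean-air CAST/EiJ replicate 5 (5.21%).

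Other proteins with a C-type lectin domain were taken as a list of 32 genes, of which 30 were tested. Under BD 3 rose and 4 fell in C57BL/6J, against 4.2% higher and 6.49% lower of all genes, and their median log2 fold was -0.08. The counts were 8 and 3 without title numbers over 100 (17% of all genes called) and 8 and 5 with the series as a covariate (19.4%). They were 8 and 4 with the C57BL/6J groups alone (14.6%) and 2 and 1 without clean-air replicate 4 (7.34%). They were 2 and 2 without clean-air replicate 2 (7.89%) or BD replicate 4 or 5 (7.27% and 7%). Colec12, a scavenger receptor of endothelium, rose 1.34-fold (edgeR adjusted p = 0.00291), and Thbd, the thrombin-binding thrombomodulin, rose 1.26-fold (0.0166). Fcer2a, the low-affinity IgE receptor of B cells, fell by 1.51 on the log2 scale (0.00819), and Cd69, an early activation marker of lymphocytes, fell by 1.08 (0.0149). In CAST/EiJ edgeR called 0 of the 30, with 5 at an unadjusted p under 0.05, and DESeq2 also called 0. Without title numbers over 100 edgeR called 1 higher and 3 lower of 32 tested (3.53% of all genes), with 14 at an unadjusted p under 0.05. With library number 8 kept it called 1 higher and 1 lower (13.8% of all genes). It called 1 without clean-air CAST/EiJ replicate 5 or 6 or CAST/EiJ BD replicate 3. In the strain comparisons 7 were higher and 6 lower in CAST/EiJ under BD, against 20.4% and 22.3% of all genes, and 6 higher and 8 lower in clean air, against 29.4% and 31%. These shares are near or below the background. Without title numbers over 100 the clean-air counts were 12 higher and 8 lower of 32 tested. In that fit 43.8% of all genes were called in either direction, so the share of the list was above the background. Pla2r1, the phospholipase A2 receptor, was lower in CAST/EiJ by log2 -1.87 ± 0.08 under BD and -1.88 ± 0.07 in clean air (SE), and Bcan, a proteoglycan best known from brain, by -2.94 ± 0.27 and -3.10 ± 0.26. Sftpa1, the lung collectin surfactant protein A, was higher by 0.63 ± 0.11 under BD and 1.00 ± 0.11 in clean air, and Mrc1, the mannose receptor of macrophages, by 0.67 ± 0.12 under BD. The interaction was called for 4, 1 positive and 3 negative, against 5.62% and 3.82% of all genes, among them Fcer2a at 1.81 ± 0.50, Colec12 at -0.59 ± 0.12 and Thbd at -0.56 ± 0.12 (SE). It was called for 1 without title numbers over 100 (1.8% of all genes) and for 1 with the series as a covariate (0.483%). With limma-voom it was called for 2 (6.66%). It was called for 2 without any 1 of clean-air C57BL/6J replicates 2 to 4 or C57BL/6J BD replicates 3 to 5. It was also called for 2 without CAST/EiJ BD replicate 1 or clean-air CAST/EiJ replicate 4. Without clean-air CAST/EiJ replicate 6 it was called for 8 (18.6% of all genes).

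Genes that carry the signals of these receptors were taken as a list of 38, of which 36 were tested. Under BD 15 fell and 1 rose in C57BL/6J, against 6.49% lower and 4.2% higher of all genes, with a median log2 fold of -0.37. Rel, an NF-kappaB subunit of lymphocytes and myeloid cells, fell by 1.03 ± 0.15 (SE) on the log2 scale (edgeR adjusted p = 0.000161), and Plcg2, the phospholipase downstream of Syk, fell by 0.87 ± 0.14 (0.000468). The number that fell was 11 to 18 when each C57BL/6J library was left out in turn. In CAST/EiJ edgeR called 0 of the 36, with 6 at an unadjusted p under 0.05, and DESeq2 called 4. With edgeR 4 were called when library number 8 was kept or clean-air CAST/EiJ replicate 7 was left out, 3 without clean-air CAST/EiJ replicate 6 or clean-air C57BL/6J replicate 1 or with the squamous covariate, and 1 without C57BL/6J BD replicate 1 or with median-of-ratios scaling. The interaction was called for 11, all positive, against 5.62% of all genes, with Rel at 1.42 ± 0.21 (SE) and Nfatc1, a transcription factor activated by calcium, at 1.00 ± 0.16, and for 2 both without title numbers over 100 and in a fit with the series as covariate. It was called for 5 without clean-air C57BL/6J replicate 3, and for 6 or 7 without any 1 of clean-air C57BL/6J replicates 2 and 4, C57BL/6J BD replicates 3 to 5, CAST/EiJ BD replicates 1 and 6 or clean-air CAST/EiJ replicate 4. Between the strains 8 were higher and 5 lower in CAST/EiJ under BD, against 20.4% and 22.3% of all genes, and 5 higher and 16 lower in clean air, against 29.4% and 31%. Many of these genes are also used by lymphocytes, whose markers fell in the same C57BL/6J libraries, and the part of that in the counts was not tested.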

How the data were processed

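RNA-seq of mouse lung gave a table of whole-number counts per gene that the authors deposited. Per the submitters' processing notes GSNAP and the mm9 build were used; the version, the gene counter, the use of strand and the treatment of reads that match several copies are not given in the sources used here. mm9 is the C57BL/6J reference, so reads of CAST/EiJ carry more mismatches to it, and the effect on counts was not tested. Of 23893 entries, 23872 had a value in every library. Libraries were grouped by strain and exposure labels. Counts were tested in R 4.3.3 with edgeR 4.0.16 (filterByExpr, TMM scaling, robust quasi-likelihood fit, 1 mean per group, 23 libraries sharing 1 estimate of the spread), with Benjamini-Hochberg adjustment over 17377 genes and calls at adjusted p under 0.05. The standard error of a log2 fold is its size divided by the square root of F. No 2 libraries agreed within sampling noise (smallest chi-square per degree of freedom 5.13 over 276 pairs). Ratios of summed counts have exact 95% intervals and, like the floor of 3 counts, cover counting error only. The script was tested on simulated data. Alternatives were median-of-ratios scaling, DESeq2 1.42.0, limma-voom 3.58.1, no filter, library number 8 kept, the compared groups alone, title numbers over 100 left out or as a covariate, squamous epithelium as a covariate (chosen after seeing the data) and each library left out.

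The genes and lists were chosen with earlier results of these data known. Library values (in groups of over 5 libraries the lowest, median and highest) are given, in the comparisons described, for at most 16 lectins by smallest adjusted p, among those that were called in 1 or more comparisons and averaged 1 CPM or more in some group; Clec4b2, Clec4a4, Clec4a1, Clec16a, Clec4d, Clec5a, Clec4g and Clec4f were added after their values were seen. Of each list at most 2 called genes per comparison and direction are named. The values of 1 gene of the signalling list are not reported here. The small RNA and chromatin data were not used here.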

Additional observations from a re-analysis of the deposited data

Results flagged for a closer look

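Among 64 groups of values of the named lectins, 8 held a library that stood apart by a rule that chance meets in about 1 of 20 groups. In 3 of the 8 all other libraries were at 0, where any count meets the rule, so no chance value applies to them. In clean-air C57BL/6J, Clec12b was low in replicate 1 at 3.22 CPM, Clec4n was high in the same library at 17.3 CPM, and Clec12a was high in replicate 2 at 15.4 CPM. In C57BL/6J BD, Cd209f was high in replicate 6 at 4.21 CPM. In CAST/EiJ, Clec12b was counted at 0.0584 CPM in clean-air replicate 2 and Cd209f at 0.0400 CPM in BD replicate 2 and at 0.0899 CPM in clean-air replicate 4, while the other libraries of each group had none (Clec12b and Cd209f in clean air, Cd209f under BD). Clec7a was low in clean-air CAST/EiJ replicate 7 at 52.9 CPM.

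Of 48 groups of marker sums, 4 did the same (2.4 expected). These were the monocyte markers in CAST/EiJ BD replicate 4 at 1209 CPM, the neutrophil markers in C57BL/6J BD replicate 1 at 113 CPM, the squamous epithelium markers in clean-air C57BL/6J replicate 1 at 1582 CPM and the liver markers in clean-air CAST/EiJ replicate 7 at 1678 CPM.

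The response to BD differed between the strains, by edgeR's test of the difference itself, in the fit of all 23 libraries for Clec12b (3.39 on the log2 scale, CAST/EiJ minus C57BL/6J), Cd209c (1.12), Clec4a1 (0.99), Clec9a (0.53), Clec16a (0.44) and Clec11a (-0.89). None of the 6 was called without title numbers over 100 (1.8% of all genes called) or with the number series as a covariate (0.483%). With limma-voom 2 lectins and 6.66% of all genes were called.

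The library with title number 8, which entered no comparison, held 4.42 CPM of Cd209f, 1.01 CPM of Cd209g and 3.35 CPM of Clec12b, above every other library with a CAST/EiJ label.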

How the results depend on the processing

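Of 49 calls of single lectins over the 5 comparisons, 28 were kept under all settings run and 21 were lost under at least 1; none changed direction. The counts of lectins called between strains stayed within 1.5 times of 18 in both comparisons, at 12 to 19 in clean air and 16 to 20 under BD. The count for BD in C57BL/6J (4, 10.7% of all genes) was 2 with library number 8 kept under its label (7.47%). It was 0 to 6 when each library was left out in turn (5.57% to 13.2% of all genes). The count for BD in CAST/EiJ (3, 7.22% of all genes) was 8 with library number 8 kept (13.8%). It was 0 with the compared groups alone (0.957%), where Clec12b had no test result, and 1 without title numbers over 100 (3.53%). It was 0 with the number series as a covariate (1.58%) and 5 with squamous epithelium as a covariate (10.7%). Leaving out each library gave 2 to 5 (2.04% to 17.3% of all genes). The interaction count (6, 9.44% of all genes) was 0 without title numbers over 100 (1.8%) and 0 with the series as a covariate (0.483%). It was 2 with limma-voom (6.66%), and 1 to 9 when each library was left out (2.12% to 19.4%). The cause was not tested. Over all genes tested the calls for BD in CAST/EiJ were 1255, and 159 with the compared groups alone, 627 without title numbers over 100 and 275 with the series as a covariate. No paired analysis was possible because the replicate numbers were given in accession order and pair no libraries. Depth limits the near-absent genes: in CAST/EiJ Cd209f, Cd209g and Clec12b rest on 0 to 22 counts per group.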
